A study of Bos taurus with 12 samples.

Results

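The genes of bile acid synthesis and transport were followed together with NR0B2, which encodes the short heterodimer partner SHP, in liver of newborn calves. The 10 genes were NR0B2, NR1H4, CYP7A1, CYP8B1, CYP27A1, BAAT, SLC10A1, ABCB11, SLC51A and SLC51B, chosen by name, of 30336 genes in the count tables. A gene ID was found by symbol for 9 of them. BAAT, which joins bile acids to glycine or taurine, was not matched and is not given. Of the 9 matched genes, 8 passed the filter on low counts and were tested among 13212 genes, while SLC51A was below it.

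Liver was taken by puncture biopsy at 4 d of age from Holstein heifer calves, 6 per maternal diet, and polyadenylated RNA was sequenced in stranded libraries on a single lane. Calves in CON were born to cows fed a close-up control diet with no added methionine. Calves in MET were born to cows given the same diet plus ethyl-cellulose rumen-protected methionine (Mepron®) for the last 28 d before calving. The treatment was thus given to the dam and not to the calf, and the comparison asks how liver transcripts of the offspring differed by maternal supply.

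Hepatocytes make bile acids from cholesterol, by a main route that CYP7A1 opens and by a second route that CYP27A1 takes part in, and CYP8B1 sets how much cholic acid is made. Bile acids returning from the gut are taken up from blood by SLC10A1 (NTCP) and pumped into bile by ABCB11 (BSEP), and the paired subunits encoded by SLC51A and SLC51B can carry them back to blood. Bile acids bind the nuclear receptor FXR, encoded by NR1H4, and FXR is known to induce NR0B2, whose product SHP is known to repress CYP7A1 and CYP8B1.

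The libraries held 8277789 to 10397604 counted reads. CPM are counts scaled to a common library total, given after TMM scaling of library sizes unless stated. Before that scaling 3 reads, taken as the lowest amount that can be shown, equalled 0.289 to 0.362 CPM. This floor covers counting error only. A chi-square per gene of 1.33 between CON replicates 1 and 4, and of 1.24 between MET replicates 1 and 3, was close to counting noise, against 25.1 to 132.9 in the other 64 of 66 library pairs. Both near-identical pairs entered as 1 sample each, which left 5 samples per diet for means and SD. Each gene was compared with edgeR's quasi-likelihood test over the 12 libraries, with Benjamini-Hochberg adjustment over all genes tested and a threshold of 0.10 on the false discovery rate (FDR). The same test over the 10 samples stands beside it. The first sequencing index was one for CON and another for MET libraries, and the 2 factors, index and maternal diet, cannot be told apart.

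NR0B2 was the one gene of the 8 that passed the threshold, and it was higher in MET. The 6 genes NR1H4, CYP7A1, CYP8B1, CYP27A1, SLC10A1 and ABCB11 had negative log2 fold changes, and SLC51B had a positive one, none of them past the threshold. Over the 12 libraries 4.41% of all genes tested had an FDR of at most 0.10, or 2.09% when only genes higher in MET were counted, against 1 of these 8 genes. Over the 10 samples edgeR called no gene at all (0.0%), NR0B2 included. Its unadjusted p was at most 0.05 there in 2162 genes (16.4%), 1 of the 8 among them. DESeq2 over the same 10 samples, a fit added after the data were seen, called 624 genes, NR0B2 among them. The median log2 fold change of the 8 genes was -0.26 over the 12 libraries, and that of all genes tested was -0.0031. The median size of the change without its sign was 0.49 in the 8 genes and 0.19 in all genes tested.

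**Figure D1:**
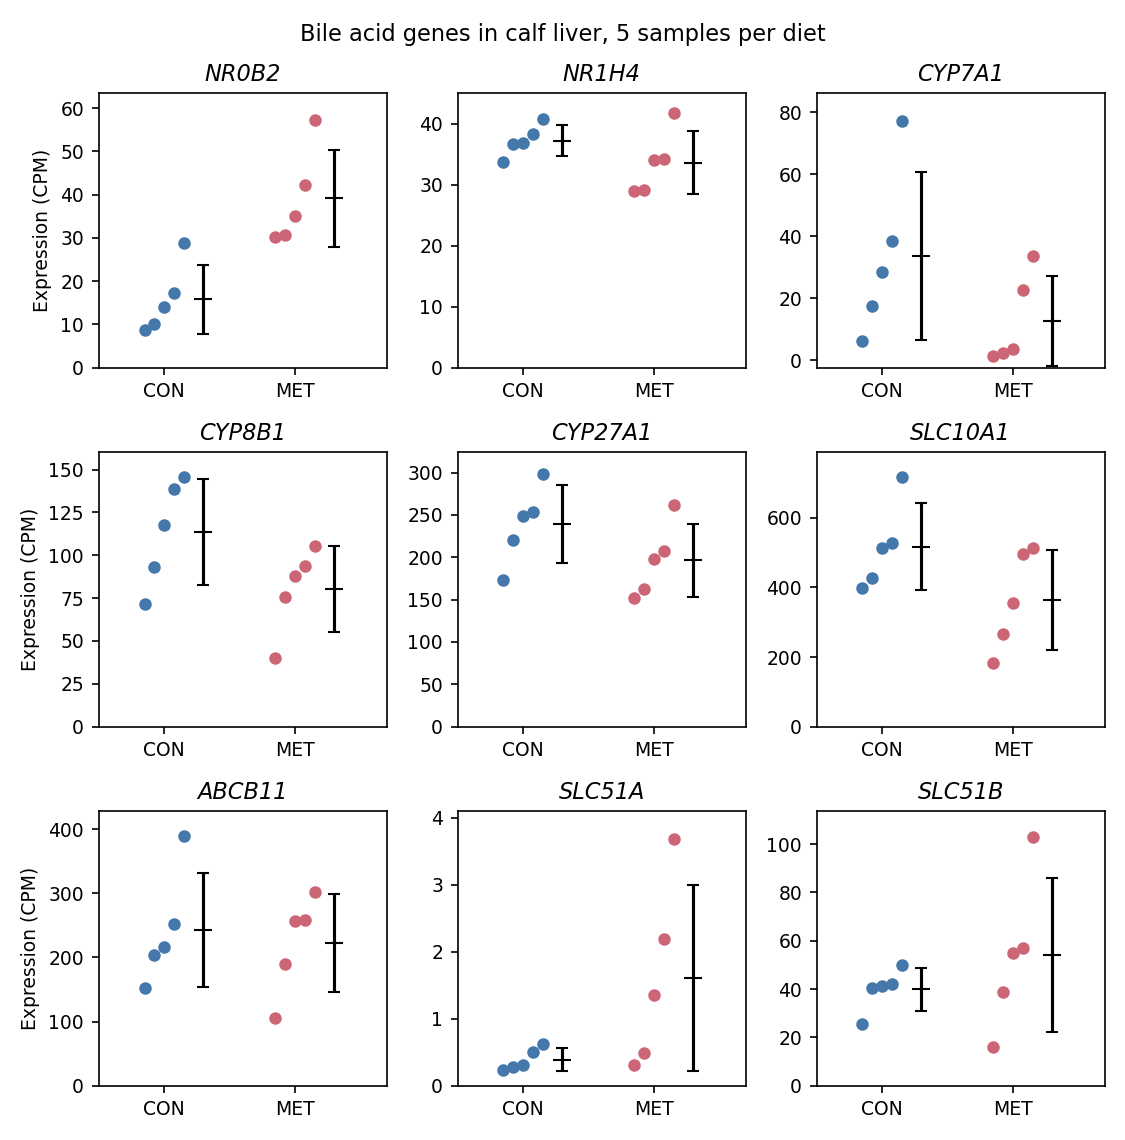
Expression (CPM, linear axes that differ between panels) of the 9 matched genes in the 5 CON and 5 MET samples, ordered by value within each diet; the bar beside the points is the mean ± SD. In the NR0B2 panel all 5 MET samples, from 30.2 CPM, lie above all CON samples, which reach 28.9 CPM, while the diets overlap in every other panel and the SD bar of CYP7A1 in MET extends below 0 because its SD exceeds its mean.

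NR0B2 encodes an orphan nuclear receptor without a DNA-binding domain that acts by binding other receptors. The gene (ID 514770) lay on the plus strand of chromosome 2 at 126892628 to 126894826 of the bovine assembly UMD 3.1.1, with 1233 bases of exon. In CON it was at 17.2 CPM in the sample of replicates 1 and 4, 28.9 in replicate 2, 8.67 in replicate 3, 14.0 in replicate 5 and 10.2 in replicate 6. In MET it was at 57.3 CPM in the sample of replicates 1 and 3, 35.1 in replicate 2, 42.3 in replicate 4, 30.2 in replicate 5 and 30.8 in replicate 6. All 5 MET samples were above all 5 CON samples, although the lowest MET sample was close to CON replicate 2. Of all genes tested, 1.93% were separated in this way with MET higher. The mean was 15.8 ± 8.04 CPM in CON and 39.1 ± 11.3 in MET (SD, n = 5). The log2 fold change was 1.40 ± 0.27 (SE) over the 12 libraries, or 2.64-fold, with an FDR of 0.0452 by edgeR's quasi-likelihood test. It ranked 25 among 13212 genes ordered from the highest log2 fold change. Over the 10 samples it was 1.31 ± 0.30, or 2.49-fold, with an unadjusted p of 0.000934 and an FDR of 0.173 by edgeR. DESeq2 over the 10 samples, added after the data were seen, gave an FDR of 0.00646.

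The exact two-sided permutation p for NR0B2 over the 10 samples was 0.00794, the smallest that 5 samples against 5 can give. NR0B2 is listed as changed by the study on these libraries, so this p describes the separation and is no independent test. When 1 of the 12 libraries was left out, the FDR of NR0B2 stayed at or under 0.10 in 10 of 12 fits. It was above 0.10 without CON replicate 1 or without CON replicate 4, reaching 0.104. Each of these 12 fits still counted at least 1 near-identical pair as separate libraries. With 1 of the 10 samples left out, the edgeR FDR was 0.141 to 0.255. In bulk tissue, fewer cells that express a gene and less RNA of it per cell cannot be told apart, and this holds for each gene given here.

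NR1H4 (ID 540528; chromosome 5, 64735516 to 64815389, plus strand, 2797 bases of exon), which encodes FXR, showed little spread. It was at 33.8 to 40.8 CPM in the CON samples and at 29.0 to 41.8 CPM in the MET samples. The lowest values, 29.1 and 29.0 CPM, were those of MET replicates 2 and 6, and the highest, 41.8 CPM, was that of MET replicate 5. The mean was 37.3 ± 2.56 CPM in CON and 33.6 ± 5.21 in MET, and the log2 fold change was -0.14 ± 0.10 over the 12 libraries (edgeR FDR = 0.449) and -0.15 ± 0.12 over the 10 samples (FDR = 0.562). The difference in NR1H4 was within the spread between calves (exact two-sided permutation p = 0.198).

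CYP7A1, the rate-limiting enzyme of the main route of bile acid synthesis, was the most variable of these genes. The gene (ID 510507) lay on the minus strand of chromosome 14 at 26348324 to 26358692, with 2667 bases of exon. In CON it was at 77.3 CPM in the sample of replicates 1 and 4, 17.7 in replicate 2, 6.39 in replicate 3, 38.5 in replicate 5 and 28.6 in replicate 6. In MET it was at 2.47 CPM in the sample of replicates 1 and 3, 33.6 in replicate 2, 22.6 in replicate 4, 3.69 in replicate 5 and 1.44 in replicate 6. A split was seen within MET, where 3 of 5 samples were below every CON sample and the other 2 lay within the CON range. The highest and lowest samples of one diet differed 12.1-fold in CON and 23.3-fold in MET.

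The mean of CYP7A1 was 33.7 ± 27.2 CPM in CON and 12.8 ± 14.6 in MET (SD, n = 5). Its log2 fold change of -1.89 ± 0.77 over the 12 libraries, or 3.71-fold higher in CON, ranked 8 from the lowest of 13212 genes, and its edgeR unadjusted p was 0.0271 but the FDR was 0.188. An unadjusted p of at most 0.05 with a lower value in MET was found in 10.4% of all genes tested. Over the 10 samples the log2 fold change was -1.43 ± 0.82, or 2.69-fold, with an FDR of 0.406, and the exact two-sided permutation p was 0.103. Without the sample of CON replicates 1 and 4 it was -0.86, and without MET replicate 2 it was -2.22, or -2.67 over the libraries left of the 12 (FDR = 0.282 and 0.111). A large difference between means was thus within the spread between calves of the same diet. The coefficient of variation was 80.6% in CON and 114% in MET, against a median of 16.5% and 17.2% over 10187 genes of at least 5 CPM, which put CYP7A1 at the 99.1 and 99.7 percentiles.

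CYP8B1, the sterol 12-hydroxylase that directs synthesis to cholic acid, lay on chromosome 22 (ID 538964; 15574311 to 15577582, minus strand, 1068 bases of exon). The CON samples were at 139, 146, 71.8, 118 and 93.2 CPM in the order of replicates 1 and 4 together, 2, 3, 5 and 6. The MET samples were at 105, 93.4, 39.9, 75.7 and 87.9 CPM in the order of replicates 1 and 3 together, 2, 4, 5 and 6. The same orders hold for the genes that follow. MET replicate 4 was the lowest of all 10 samples, and 3 CON samples were above every MET sample. The mean was 113 ± 30.9 CPM in CON and 80.5 ± 25.1 in MET, and the log2 fold change was -0.47 ± 0.23 over the 12 libraries (edgeR FDR = 0.254) and -0.49 ± 0.26 over the 10 samples (FDR = 0.357, exact two-sided permutation p = 0.119).

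CYP27A1 encodes the mitochondrial sterol 27-hydroxylase, which opens the second route and also oxidizes the side chain. The gene (ID 511960) was on chromosome 2 at 107462687 to 107504971, plus strand, with 1809 bases of exon. It was at 254, 298, 173, 221 and 249 CPM in the CON samples and at 198, 208, 162, 152 and 262 CPM in the MET samples. The diets overlapped widely, since the second-highest of all samples was MET replicate 6. The mean was 239 ± 46.0 CPM in CON and 196 ± 43.3 in MET, and the log2 fold change was -0.30 ± 0.15 over the 12 libraries (edgeR FDR = 0.289) and -0.28 ± 0.18 over the 10 samples (FDR = 0.458, exact two-sided permutation p = 0.159).

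SLC10A1, the sodium-dependent carrier that takes bile acids up from portal blood, had the highest transcript level of the 9 genes. The gene (ID 532890) lay on chromosome 10 at 81867933 to 81890829, minus strand, with 2064 bases of exon. It was at 716, 514, 398, 527 and 427 CPM in the CON samples and at 513, 497, 184, 266 and 354 CPM in the MET samples. The lowest 3 of the 10 samples were MET replicates 4, 5 and 6, and the other 2 MET samples were within the CON range. The mean was 517 ± 124 CPM in CON and 363 ± 143 in MET, and the log2 fold change was -0.50 ± 0.25 over the 12 libraries (edgeR FDR = 0.271) and -0.51 ± 0.27 over the 10 samples (FDR = 0.375, exact two-sided permutation p = 0.111).

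ABCB11, the pump that exports bile salts into the canaliculus, was similar in mean between the diets. The gene (ID 531150) was on chromosome 2 at 27160651 to 27260967, plus strand, with 6389 bases of exon. It was at 389, 252.3, 204, 216 and 152 CPM in the CON samples and at 258, 257, 106, 303 and 189 CPM in the MET samples. The highest sample was that of CON replicates 1 and 4 and the lowest was MET replicate 4. The mean was 243 ± 89.4 CPM in CON and 223 ± 76.8 in MET, and the log2 fold change was -0.23 ± 0.27 over the 12 libraries (edgeR FDR = 0.670) and -0.13 ± 0.29 over the 10 samples (FDR = 0.867, exact two-sided permutation p = 0.683). Its direction turned when either of those extreme samples was left out of the 10, to 0.11 without CON replicates 1 and 4 and to 0.051 without MET replicate 4.

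**Figure D2:**
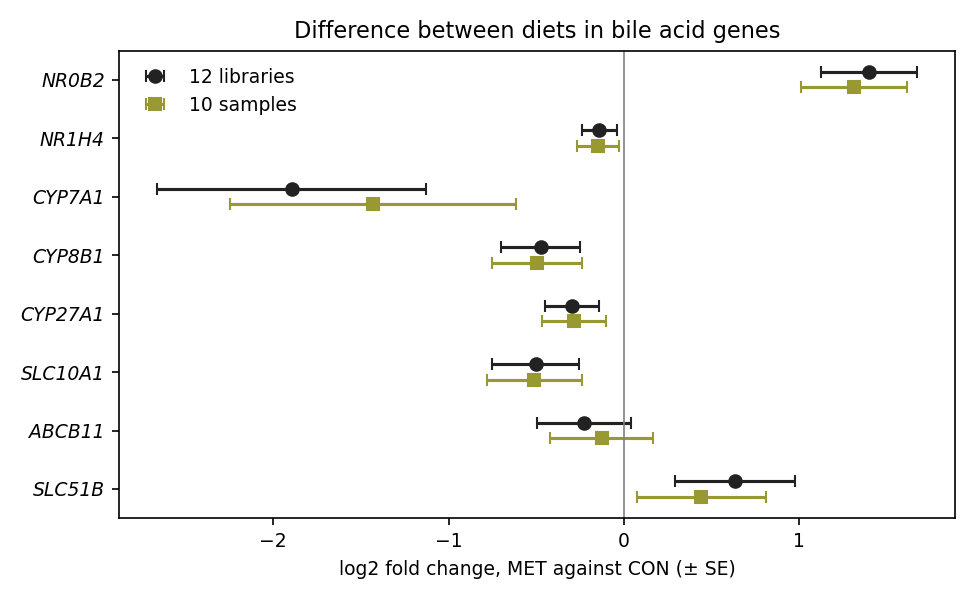
Log2 fold change of MET against CON (x axis) for the 8 tested genes, with bars of ± 1 SE, from the fit to the 12 libraries (circles) and to the 10 samples (squares). NR0B2, at 1.40 and 1.31, is the one gene whose bars lie far above 0, and CYP7A1, at -1.89 and -1.43, has the widest bars.

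SLC51A and SLC51B encode the alpha and beta subunits of the basolateral transporter OST, and both subunits are needed for transport. SLC51A (ID 516626; chromosome 1, 71416805 to 71434992, plus strand, 1651 bases of exon) was close to the floor of 3 reads, with 1 to 6 counted reads per CON library and 3 to 33 per MET library. It was at 0.282, 0.502, 0.228, 0.624 and 0.311 CPM in the CON samples and at 1.36, 0.487, 2.18, 3.69 and 0.309 CPM in the MET samples. The libraries of CON replicates 1 and 3, with 1 and 2 reads, were under that floor. Of the MET samples, 3 of 5 were above every CON sample and the other 2 were within the CON range. The mean was 0.390 ± 0.167 CPM in CON and 1.604 ± 1.38 in MET (exact two-sided permutation p = 0.0873 on log2 CPM). Like NR0B2, SLC51A is listed as changed by the study on these libraries. Its p and FDR thus describe the difference and are no independent test.

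With a looser filter, which kept genes of more than 0.5 CPM (by library size, before TMM scaling) in at least 2 libraries, the log2 fold change of SLC51A was 2.03 ± 0.57 and its edgeR FDR was 0.0954 over 12 libraries, where 1.73% of 15527 genes were called higher in MET. Over the 10 samples it was 2.04 ± 0.63 with an FDR of 0.204. SLC51A passed 0.5 CPM on that scale in 1 of 6 CON and 5 of 6 MET libraries and entered the test through MET, so that its passing the looser filter is not separate from its difference, and a fold change from so few reads depends on the fit. With every gene of 1 read or more in the fit, its FDR was 0.123. Its exons overlap those of PCYT1A on the opposite strand, which were counted apart by strand, and PCYT1A was at 36.9 ± 3.69 CPM in CON and 33.8 ± 4.98 in MET (edgeR FDR = 0.588).

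SLC51B (ID 507185; chromosome 10, 11930261 to 11941332, plus strand, 1291 bases of exon) was at 40.6, 49.8, 25.5, 42.1 and 41.3 CPM in the CON samples and at 103, 38.8, 15.97, 57.2 and 55.1 CPM in the MET samples. The MET samples thus held both the highest value, in replicates 1 and 3, and the lowest, in replicate 4. The mean was 39.9 ± 8.87 CPM in CON and 53.9 ± 31.9 in MET, and the log2 fold change was 0.64 ± 0.34 over the 12 libraries (edgeR FDR = 0.310) and 0.44 ± 0.37 over the 10 samples (FDR = 0.579, exact two-sided permutation p = 0.651). Over the 10 samples the log2 fold change was 0.067 without the sample of MET replicates 1 and 3 and 0.67 without MET replicate 4. Exons of SLC51B overlap RASL12 on the opposite strand, which was at 5.56 ± 1.23 CPM in CON and 3.88 ± 1.58 in MET.

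Transcript levels of different genes were compared as CPM per kb of exon, averaged over the 10 samples. SLC10A1 was highest at 213 CPM per kb, followed by CYP27A1 at 120, CYP8B1 at 90.7, ABCB11 at 36.4, SLC51B at 36.3, NR0B2 at 22.3, NR1H4 at 12.7, CYP7A1 at 8.71 and SLC51A at 0.604. Within a diet the order near these levels was another. In CON, NR0B2, NR1H4 and CYP7A1 were at 12.8 ± 6.52, 13.3 ± 0.915 and 12.6 ± 10.2 CPM per kb, and in MET at 31.7 ± 9.13, 12.03 ± 1.86 and 4.79 ± 5.46. ABCB11 and SLC51B were at 38.0 ± 14.0 and 30.9 ± 6.87 in CON and at 34.8 ± 12.02 and 41.8 ± 24.7 in MET. CYP27A1 was above CYP8B1, and CYP8B1 above ABCB11, in 10 of 10 samples. SLC10A1 was above CYP27A1, SLC51B above NR0B2 and CYP7A1 above SLC51A in 9 of 10. The neighbours ABCB11 and SLC51B, NR0B2 and NR1H4, and NR1H4 and CYP7A1 kept their order in 7 of 10 samples, and the mean log2 differences of these 3 pairs, 0.068, 0.60 and 1.39, were smaller than their SD of 0.59, 0.95 and 1.86.

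Ratios of gene pairs within a sample were computed as differences of log2 CPM per kb and are given as values without a test. CYP7A1 was below CYP27A1 by a mean difference of -3.78 ± 1.20 in CON and -5.42 ± 2.08 in MET (SD, n = 5), that is 13.8-fold and 42.9-fold. CYP8B1 was above CYP7A1 by 3.44 ± 1.08 in CON and 4.85 ± 2.26 in MET. ABCB11 was below SLC10A1, with a difference of -2.76 ± 0.25 in CON and -2.32 ± 0.50 in MET. SLC51A was below SLC51B, with a difference of -6.44 ± 0.32 in CON and -5.40 ± 1.66 in MET, but with so few reads of SLC51A the size of this difference, and its small SD in CON, depend on the prior count of 2 added before the log.

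The relation between NR0B2 and CYP7A1 across calves, where a repressor and a target are compared, was examined as the 1 relation of its kind. Over the 10 samples the log2 CPM of the 2 genes had a Pearson r of -0.36 (two-sided permutation p = 0.298) and a Spearman rho of -0.36 (permutation p = 0.313). Without the 2 samples farthest from the NR0B2 median, CON replicates 3 and 6, r was -0.58 (permutation p = 0.141, n = 8). Because NR0B2 separated the diets, r was also taken on deviations from each diet's mean, where it was 0.17 (exact permutation p = 0.614) and so of the opposite sign. CON replicate 3 was the lowest CON sample in both genes, while the sample of MET replicates 1 and 3 was the highest of all in NR0B2 and the second-lowest of all in CYP7A1. A relation between the transcripts was not detectable at this number of calves.

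**Figure D3:**
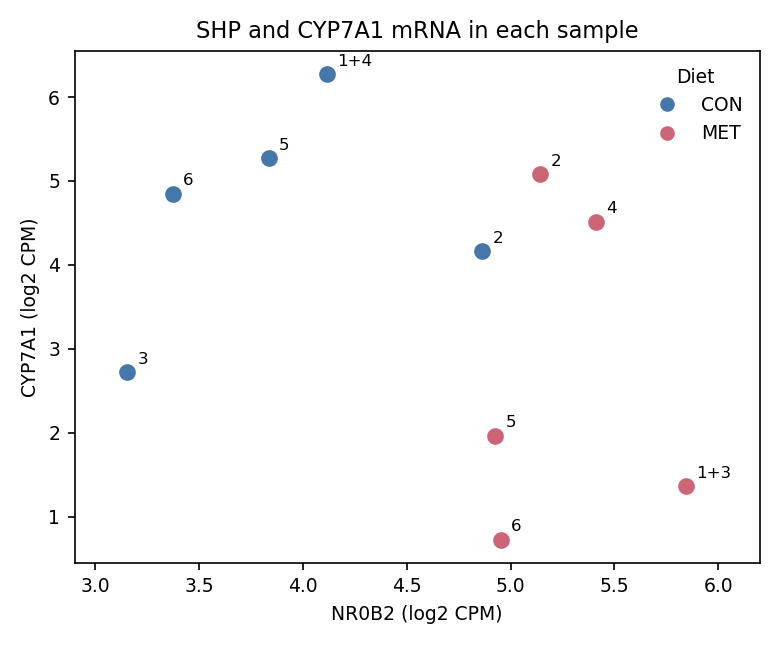
CYP7A1 (y axis) against NR0B2 (x axis), both as log2 CPM, in the 5 CON and 5 MET samples, with the replicate numbers beside the points. The MET points lie to the right of the CON points and 3 of them lie lowest, at 1.44 to 3.69 CPM, while the other 2 lie among the CON points in height.

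Genes whose sample-to-sample pattern was most like that of NR0B2 were sought among 10186 genes of at least 5 CPM, as the Pearson r of deviations from the diet means over the 10 samples. The closest were TBC1D25 (r = 0.93), YJU2B (0.92), PGAP6 (0.90), ELOVL1 (0.90) and HAAO (0.89). Of the other 7 tested bile acid genes, the highest r with NR0B2 was 0.50, for CYP8B1. For CYP7A1 the closest were CCNH (0.94), POLR2C (0.94), KXD1 (0.92), ZNF782 (0.92) and HOMEZ (0.90). These are the highest of many values from 10 samples and are given as a description.

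Among the other enzymes of side chain and ring steps, 14 of 16 listed genes were tested. None was called higher and 1 was called lower in MET over the 12 libraries, with a median log2 fold change of -0.29, and 12 of the 14 values were negative. The gene called was SCP2, whose product carries sterols and cleaves the shortened side chain in peroxisomes. SCP2 was at 607 ± 78.0 CPM in CON and 337 ± 61.2 in MET, and the diets did not overlap, with 505 CPM in the lowest CON and 390 CPM in the highest MET sample. By edgeR the log2 fold change was -0.84 (FDR = 0.0381 with 12 libraries and 0.155 with 10 samples). Of all genes tested, 2.32% were called lower in MET over the 12 libraries, and 1.77% were separated with MET lower over the 10 samples. In the fit to 10 samples an unadjusted p up to 0.05 was reached with a lower value in MET by 2 of the 14 genes, SCP2 and ABCD3, and by 8.5% of all genes tested. ABCD3, a peroxisomal membrane carrier of bile acid intermediates, had a mean of 69.0 CPM in CON and 52.2 in MET, with an unadjusted p of 0.0255 over the 10 samples and an FDR of 0.260 over the 12 libraries.

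Of 15 other bile acid and sterol transporters, 14 were matched and 13 tested, and 2 were called lower (2.32% of all genes tested) and none higher in MET. Both encode organic anion carriers that take up bile acids without sodium. SLCO1B3 was at 710 ± 66.8 CPM in CON and 555 ± 65.7 in MET, without overlap of the diets, as in 1.77% of all genes tested (log2 fold change -0.41, edgeR FDR = 0.0865 over 12 libraries and 0.231 over 10 samples). SLCO1A2 was at 25.1 ± 4.64 CPM in CON and 14.7 ± 4.78 in MET, with overlap (log2 fold change -0.77, FDR = 0.0715 and 0.178). SLC10A2, the apical sodium-dependent carrier known from ileum and bile ducts, and ABCG2, an efflux pump, had unadjusted p of 0.0139 and 0.0225 over the 10 samples, where 8.5% of all genes tested reached 0.05 with a lower value in MET. Their FDR over the 12 libraries was 0.101 and 0.129. SLC10A2 was at 3.08 ± 1.23 CPM in CON and 1.67 ± 0.412 in MET, and ABCG2 at 102 ± 19.2 and 76.1 ± 13.9 CPM. The median log2 fold change of the list was -0.20.

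In the list of 18 regulators of bile acid synthesis, 15 were tested, 1 was called lower (2.32% of all genes tested) and none higher, with 9 positive and 6 negative values and a median of 0.048. The gene called was KLB, which encodes beta-Klotho, the coreceptor through which gut FGF19 represses CYP7A1 in hepatocytes. KLB was at 74.6 ± 6.34 CPM in CON and 45.1 ± 11.4 in MET, and the highest MET sample, at 58.4 CPM, was below the lowest CON sample, at 68.0, a separation seen in 1.77% of all genes tested. By edgeR the log2 fold change was -0.69 (FDR = 0.0571 with 12 libraries and 0.173 with 10 samples). FGF19 itself had no read in any library, which allows up to 0.362 CPM before TMM scaling. NR1H3, the oxysterol receptor LXR alpha, and GPBAR1, a membrane receptor of bile acids, were at 76.8 and 9.41 CPM in CON and at 98.2 and 12.6 CPM in MET. Their unadjusted p over the 10 samples was 0.0211 and 0.0497, a level that 7.86% of all genes tested reached with a higher value in MET, and their FDR over the 12 libraries was 0.166 and 0.263.

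NR0B2 is one of several genes that FXR is known to induce. Of 10 others in a list written for this purpose, all tested, none was called higher and 1 was called lower (2.32% of all genes tested), with a median log2 fold change of -0.075. The gene called was PPARA, the fatty acid receptor, at 17.9 ± 1.57 CPM in CON and 13.1 ± 2.00 in MET, without overlap as in 1.77% of all genes tested (log2 fold change -0.42, edgeR FDR = 0.0849 over 12 libraries and 0.178 over 10 samples). KNG1, which encodes kininogen, had a log2 fold change of -0.43 and an unadjusted p of 0.0367 over the 10 samples, against 8.5% of all genes tested at 0.05 or under and lower in MET. FETUB, which encodes fetuin B and was chosen after its values were seen, had the lowest log2 fold change of the list, -1.08 (323 ± 164 CPM in CON and 151 ± 107 in MET, edgeR FDR = 0.216 over 12 libraries and 0.327 over 10 samples). The fibrinogen genes FGA, FGB and FGG were at log2 fold changes of 0.065, 0.033 and 0.072.

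**Figure D4:**
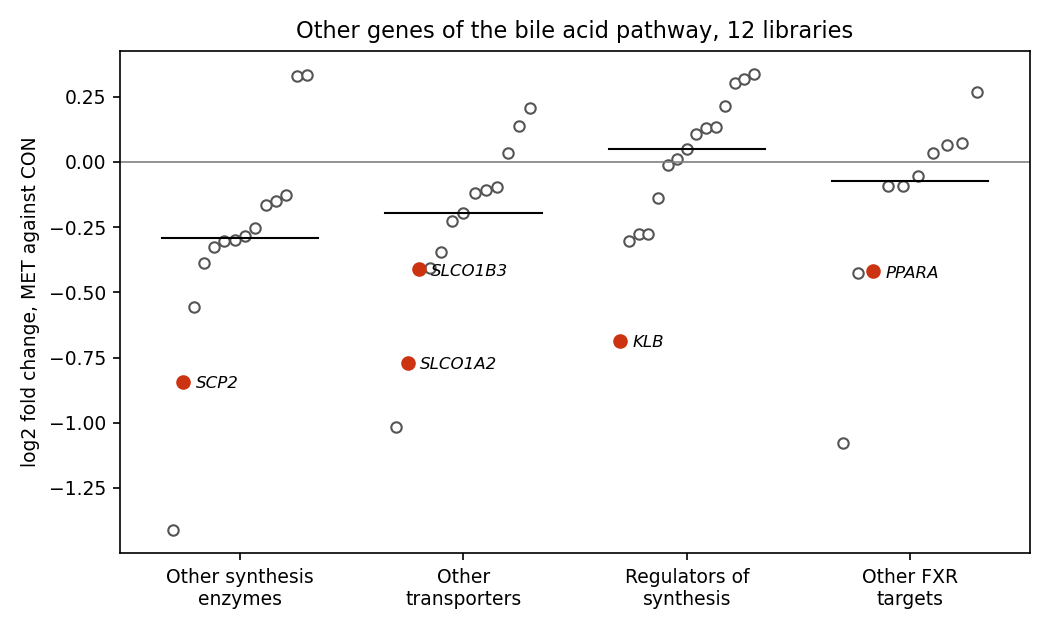
Log2 fold change of MET against CON over the 12 libraries (y axis) for the tested genes of 4 lists, with filled, named points at an FDR of at most 0.10 and a line at each list's median. The 5 filled points, SCP2, SLCO1B3, SLCO1A2, KLB and PPARA, are all below 0.

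Transcripts of NR0B2 and CYP7A1 are known to vary over the day, and the hour of biopsy was not among the sample labels. Of 14 clock genes tested, 2 were called lower and none higher in MET, NR1D2 with 33.7 ± 3.28 CPM in CON and 24.0 ± 3.51 in MET (FDR = 0.0452) and HLF with 3.95 ± 1.29 and 1.90 ± 0.511 (FDR = 0.0869), and 13 of 14 values were negative, where 2.32% of all genes tested were called lower. Of 10 immediate early genes, which answer quickly to handling of tissue, KLF6 and MYC were called lower with log2 fold changes of -1.04 and -1.14 and IER2 higher with 0.43, where 2.32% of all genes tested were called lower and 2.09% higher. Over the 10 samples the edgeR FDR of these 5 genes was 0.173 to 0.187. The part of these genes in the differences of NR0B2 and CYP7A1 was not tested.

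The hepatocyte markers, all 8 of which were tested, summed to 136135 to 183451 CPM in the CON samples and 111076 to 144442 in the MET samples, with 1 called lower in MET, APOB (edgeR FDR = 0.0859 over 12 libraries and 0.188 over 10 samples). Of the 8 log2 fold changes 6 were negative, and their median was -0.26 by the 12 libraries and -0.29 by the 10 samples, where that of the 8 bile acid genes was -0.26 and -0.22. ALB, the albumin gene, was at 62111 ± 13385 CPM in CON and 39382 ± 8747 in MET (log2 fold change -0.65, edgeR FDR = 0.107 over 12 libraries, unadjusted p = 0.0201 over 10 samples). Of 7 Kupffer cell markers, 2 were called higher in MET, C1QB and C1QC, all 7 log2 fold changes were positive, and the sums were 1152 to 1547 CPM in CON and 1350 to 1817 in MET. Of 7 tested bile duct markers, CFTR was called lower (2.32% of all genes tested, against 2.09% called higher), and the sums were 78.4 to 129.9 CPM in CON and 53.1 to 111.3 in MET. The edgeR FDR over the 10 samples was 0.214 for C1QB, 0.175 for C1QC and 0.195 for CFTR. Of 6 endothelial and 6 stellate cell markers none was called. The enterocyte markers FABP2, SI, LCT and ALPI had no read in any library. VIL1, the other marker of that list, was at 6.04 ± 3.13 CPM in CON and 5.26 ± 2.29 in MET (edgeR FDR = 0.822 over 12 libraries). Of 7 erythroid markers 2 were tested and none was called. The sums of the hepatocyte, Kupffer cell and bile duct markers overlapped between the diets. Of the called markers, C1QB and CFTR overlapped too. APOB was separated with MET lower, as in 1.77% of all genes tested, and C1QC with MET higher, as in 1.93%. The part of these markers in the results for the bile acid genes was not tested.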

How the data were processed

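The authors trimmed reads with Trimmomatic 0.33, aligned them with STAR 2.5.3a to the bovine genome UMD 3.1.1 and deposited raw counts of reads per gene made with featureCounts (Subread 1.5.2), reverse stranded, over RefSeq exons, without normalization. Genes were matched by Entrez ID to RefSeq symbols. The diets were compared with edgeR 4.0.16 in R 4.3.3 (TMM factors, default filterByExpr, count 10 and total 15, quasi-likelihood test on diet alone). For the 10 samples, counts of the 2 near-identical library pairs were summed and the same 13212 genes were kept. Log2 CPM used a prior count of 2. By their labels replicates are separate samples, but each near-identical pair may be technical, so that p-values over 12 libraries partly measure technical spread. Named were the 10 genes, list genes with an FDR of at most 0.10 over 12 libraries or an unadjusted p of at most 0.05 over 10 samples, otherwise up to 3 of the highest mean CPM per list, and the 5 genes nearest in pattern to NR0B2 and CYP7A1. Not all genes chosen by this rule are given. Named outside it were FGF19, LCT and ALPI, which had no read, and FETUB and SLC27A2, chosen after their values were seen. PCYT1A and RASL12 were named because their exons overlap those of SLC51A and SLC51B. The 10 genes and the lists were chosen with earlier results of these data known. Alternatives covered normalization, filter, test (DESeq2 1.42.0, voom of limma 3.58.1), gene length, a replicate block and left-out libraries. Figures were drawn with Python 3.11.15.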

Additional observations from a re-analysis of the deposited data

Results flagged for a closer look

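Among 26 groups of 5 samples examined for a sample far from the others, 1 was found, and chance alone is set to pick about 1 in 20. The log2 ratio of ABCB11 to SLC10A1 per kb was -1.44 in MET replicate 5, against -2.62 to -2.43 in the other 4 MET samples, so that its gap to the nearest sample was 0.835 of the whole range. ABCB11 was at 303 CPM in that sample, the highest in MET, and SLC10A1 at 266 CPM.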

How the results depend on the processing

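The log2 fold changes of the 8 tested genes kept their direction in every setting run, except ABCB11 over the 10 samples, which turned to 0.11 without CON replicates 1 and 4 and to 0.051 without MET replicate 4. The number of all genes with an FDR of at most 0.10 was 583, and it was 107 with library size only, 238 without a filter, 1314 with DESeq2, 253 with the trend on gene length removed and 0 over the 10 samples with edgeR (also with the looser filter). It was 26 to 565 with each of the 12 libraries left out in turn, lowest without CON replicate 1 and 35 without CON replicate 4. It was 0 in each fit with 1 of the 10 samples left out. That alternative was chosen after seeing the data, as were DESeq2 over the 10 samples and the looser filter over the 10 samples. The looser filter over the 12 libraries was planned. Genes higher in MET were 47.3% of calls with TMM and 66.4% with library size only. Of the 10 bile acid genes 1 was called, 2 with the looser filter, which let in SLC51A, 0 over the 10 samples with edgeR, 1 (NR0B2) there with DESeq2, and 0 or 1 in the fits with a library left out. Same-numbered CON and MET libraries did not deviate together (r from -0.19 to 0.15). Low values of r cannot show whether the numbers pair calves. With the number as a replicate block, 6 genes and 0 bile acid genes were called, and NR0B2 had a log2 fold change of 1.45 and an edgeR FDR of 0.143. NR0B2 over the 10 samples lay between 1.13 and 1.63 with 1 sample left out. The correlation of NR0B2 with CYP7A1 turned from -0.36 to 0.17 when diet means were removed. The cause of these changes was not tested, and the depth limits SLC51A, with 1 to 33 reads per library.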

Other observations

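SLC27A2, which encodes a very-long-chain acyl-CoA synthetase that also activates bile acid intermediates, was chosen after its values were seen. It was at 87.8, 67.3, 9.47, 21.1 and 54.0 CPM in the CON samples (replicates 1 and 4 together, 2, 3, 5 and 6) and at 9.77, 5.55, 19.4, 32.3 and 46.5 CPM in the MET samples (replicates 1 and 3 together, 2, 4, 5 and 6). As with CYP7A1, calves of one diet differed widely, and in both genes CON replicate 3 was the lowest CON sample and that of CON replicates 1 and 4 the highest of all, while MET replicate 6, the lowest in CYP7A1, was the highest MET sample in SLC27A2. The log2 fold change was -1.41 over the 12 libraries (edgeR FDR = 0.183) and -1.09 over the 10 samples (FDR = 0.402).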
